A study of Mus musculus with 47 samples.

Results

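Oxidative phosphorylation genes encode the subunits of the mitochondrial respiratory chain and of ATP synthase. They were measured here by poly(A) RNA sequencing of mouse olfactory epithelium, the nasal tissue that holds the odour-sensing neurons. Members were the genes whose symbol belongs to the subunit families Nduf (a, b, c, s and v), Sdh, Uqcr, Cox4 to Cox8 and Atp5, or to the mitochondrially encoded Nd, Co, Atp and Cytb genes. Symbols ending in -ps were left out, and a mean of at least 5 TPM (a level scaled to transcript length and to the sum of all transcripts) over all 47 libraries was required. Of 110 gene entries with such a symbol, 8 ended in -ps and 7 stayed under the threshold. The remaining 95 genes, of 54532 in the table, were 82 nuclear and 13 mitochondrial genes, treated as 2 groups throughout. By symbol, the nuclear members fell into 38 genes of complex I, 4 of complex II, 8 of complex III, 15 of complex IV and 17 of complex V. Just inside the threshold lay Cox6c2 with a mean of 6.40 TPM and Ndufa4l2 with 8.24 TPM, and just outside it lay Cox4i2 with 2.30 TPM. Ndufb4c and Cox6c2 are annotated as processed pseudogenes.

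By strain label the mice were OIVT;Kir2.1 (Kir below) or C57BL/6J (wild type, WT). Kcnj2 encodes Kir2.1, a potassium channel that passes current mainly inward. No label names the promoter that drives the channel in Kir mice, and no label ties a library to a separate animal. The p-values below therefore reflect variation among libraries, part of which may be technical. Kir and WT each had 4 libraries at P0, 3 at P3, 3 at P5, 4 at P7, 3 at P14 and 3 at P21, and at P10 there were 4 Kir and 3 WT libraries.

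In oxidative phosphorylation, complex I takes electrons from NADH and complex II from succinate, and both pass them to coenzyme Q. Complex III moves them on to cytochrome c, complex IV (cytochrome c oxidase) hands them to oxygen, and complex V (ATP synthase) uses the proton gradient that complexes I, III and IV build to make ATP. The mitochondrial genome encodes membrane core subunits of complex I, cytochrome b of complex III, the catalytic core of complex IV and part of the ATP synthase, while the nucleus encodes all of complex II and the remaining subunits. Several subunits come as pairs of tissue isoforms, among them Cox8a, found in most tissues, and Cox8b, known in rodents from heart, skeletal muscle and brown fat. Olfactory sensory neurons, like other neurons, spend much of their ATP on ion pumping.

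Promoter sequences are shown for the isoform pair whose shares changed by the most percentage points between P21 and P0 in these data, and for Sdha, the flavoprotein subunit of complex II, as an example of a promoter with several copies of the letters bound by nuclear respiratory factor 1. Each window holds 300 bases, 250 before and 50 after the annotated start, from RefSeq on GRCm38.p6, read 5′ to 3′ on the gene's minus strand. The windows lie at chr7:140900397-140900696 for Cox8b, chr19:7217567-7217866 for Cox8a and chr13:74350191-74350490 for Sdha. Capitals mark the letters used for nuclear respiratory factor 1 (GCGCA and GCGC with any base between them) in Sdha, and ACTTCCGG, the reverse complement of the ETS letters CCGGAAGT, in Cox8a.
Cox8b: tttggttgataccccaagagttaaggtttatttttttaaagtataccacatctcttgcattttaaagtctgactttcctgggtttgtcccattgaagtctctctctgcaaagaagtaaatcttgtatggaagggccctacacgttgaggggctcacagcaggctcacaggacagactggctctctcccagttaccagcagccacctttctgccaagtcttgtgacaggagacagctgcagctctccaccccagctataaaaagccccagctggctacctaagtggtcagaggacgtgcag
Cox8a: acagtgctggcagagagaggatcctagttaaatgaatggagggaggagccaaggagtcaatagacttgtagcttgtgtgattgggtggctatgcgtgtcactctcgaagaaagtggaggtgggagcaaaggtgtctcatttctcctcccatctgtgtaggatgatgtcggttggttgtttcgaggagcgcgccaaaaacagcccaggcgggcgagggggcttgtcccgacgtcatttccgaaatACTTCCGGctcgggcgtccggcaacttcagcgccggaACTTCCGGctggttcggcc
Sdha: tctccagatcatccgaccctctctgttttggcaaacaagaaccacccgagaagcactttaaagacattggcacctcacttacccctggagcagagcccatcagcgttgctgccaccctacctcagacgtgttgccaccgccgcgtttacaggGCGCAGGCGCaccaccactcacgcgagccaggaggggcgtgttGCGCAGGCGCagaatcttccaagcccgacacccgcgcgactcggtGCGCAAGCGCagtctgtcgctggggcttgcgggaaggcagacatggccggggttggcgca

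Of the 82 nuclear members, 65 matched a promoter in the RefSeq table. Searched on both strands, the letters for nuclear respiratory factor 1 were in 16 of the 65 promoters (24.6%), against 6.60% of 17491 promoters of coding genes. The YY1 letters AAGATGGCG were in 6 (9.23%, against 1.94%), the ETS letters CCGGAAGT in 5 (7.69%, against 5.29%) and the estrogen-related receptor letters TCAAGGTCA in 2 (3.08%, against 0.332%). Sdha and Ndufb4 each held 3 separate copies of the nuclear respiratory factor 1 letters. The Cox8b window held none of the 4 motifs and 2 CG dinucleotides, the fewest of the 65 promoters, whose median was 19 and range 2 to 43. Over all 32851 promoters in the table the median was 7. The Cox8b window also held the letters TATAAA, which were in 6 of the 65 promoters (9.23%) and in 13.6% of all promoters. The Cox8a window held 19 CG dinucleotides and that of Sdha 25. These matches describe letters only; binding of a factor was not measured.

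Gene counts per library ran from 8107547 to 30385151, with a median of 12743208. Kcnj2 was higher in every Kir library than in the WT libraries of its age, at 132 to 1648 CPM in Kir and 36.8 to 104 CPM in WT (CPM, counts scaled to the normalized library size). Library titles carried a prefix that the labels do not explain. It was cry4 at P0, P3, P14 and P21 and cry6 at P5 and P10, and at P7 each genotype had 1 cry4, 2 cry6 and 1 cry3 library. Levels at P5 and P10 therefore cannot be told apart from the prefix by comparison with the other ages, and tests between ages below stay within a prefix. Kir P10 replicates 1 and 2 stood apart, with 17.7% and 33.5% unmapped reads and 6.44% and 5.17% multiply mapped reads, against 13.4% to 20.6% multiply mapped reads in the other 15 cry6 libraries. The 16 skeletal muscle markers summed to 14.9 to 57.6 TPM in all libraries except Kir P0 replicate 4, with 3469 TPM, and WT P3 replicate 1, with 280 TPM. WT P0 replicate 3 had the stage label P3 and the title P0 and was placed in P0 by its title. Its hypoxia genes summed to 486 TPM, against 453 to 654 TPM in the other WT P0 libraries and 280 to 304 TPM in WT P3. Its pericyte and smooth muscle markers summed to 303 TPM, against 303 to 380 TPM and 431 to 595 TPM in the same 2 sets. The mature sensory neuron markers that define the labelled tissue were present, their 11 genes summing to 6041 to 6637 TPM in Kir P21, 722 to 1502 TPM in Kir P0, 7550 to 7810 TPM in WT P21 and 1238 to 1845 TPM in WT P0.

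Together the 13 mitochondrial members held 2.21% to 8.41% of a library's TPM (median 4.81%), and the 82 nuclear members 2.003% to 2.95% (median 2.47%). The nuclear sum was the steadier of the pair. It made up 2.48% ± 0.0452 in Kir P21 and 2.11% ± 0.0990 in Kir P0, and 2.41% ± 0.166 in WT P21 and 2.24% ± 0.0551 in WT P0 (SD, n = 3 at P21 and 4 at P0). The mitochondrial sum was 4.98% ± 0.986 in Kir P21 and 6.36% ± 1.02 in Kir P0, and 6.24% ± 1.90 in WT P21 and 6.71% ± 0.691 in WT P0. Its lowest group means were 3.09% at P7 in Kir and 2.99% at P10 in WT. The sum includes mt-Co3 (mean 4180 TPM) and mt-Co2 (mean 1728 TPM), which had 1 and 0 unique counts over all libraries. Mitochondrial messengers have short poly(A) tails, so selection on poly(A) may not sample them like nuclear ones.

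**Figure D1:**
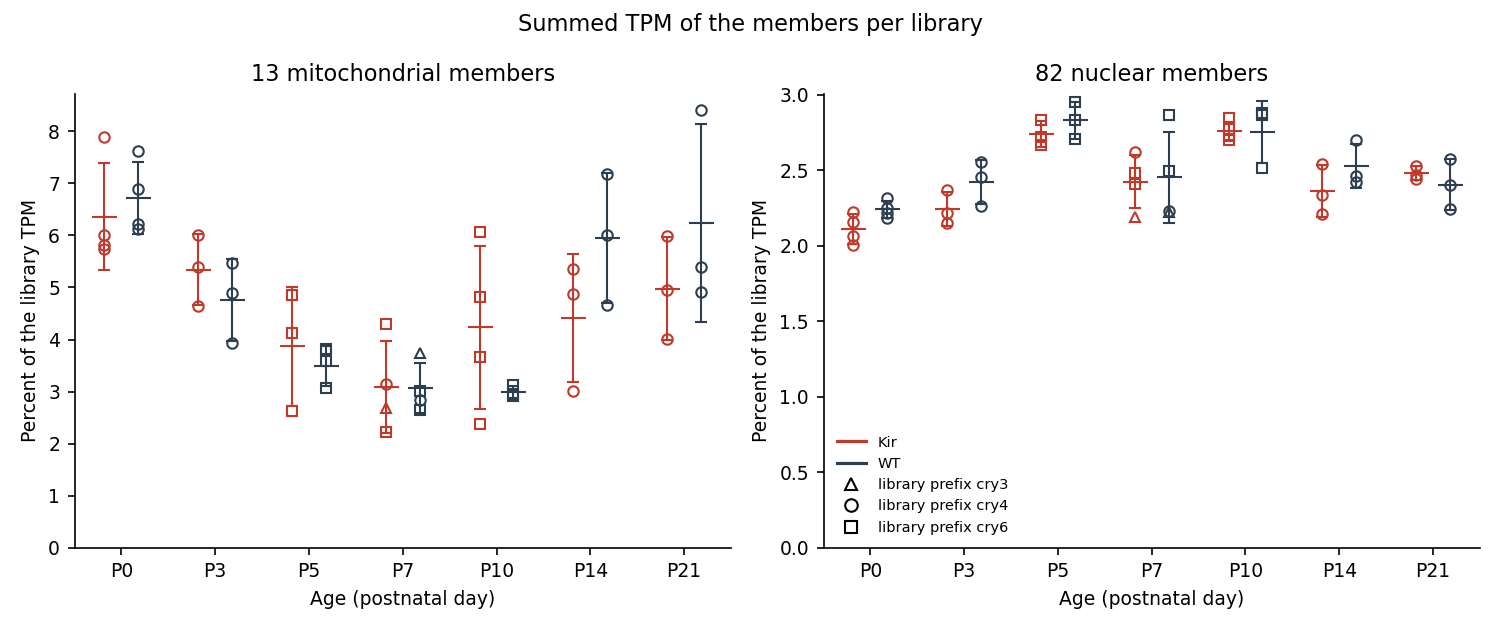
Share of a library's TPM (percent, y axis) held by the mitochondrial and by the nuclear members at each age (x axis), with 1 symbol per library, Kir in red to the left of WT in dark, and circles for prefix cry4, squares for cry6 and triangles for cry3. Bars give the mean and SD of a group. The mitochondrial share spans 2.21% to 8.41% and the nuclear share 2.003% to 2.95%.

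The nuclear members were abundant and even. Their mean levels had a median of 237 TPM and ran from 6.40 to 1209 TPM. Atp5b, the catalytic beta subunit of ATP synthase, led complex V and all nuclear members at 1209 TPM with a coefficient of variation of 8.74% over the 47 libraries. The highest member of complex IV was Cox4i1, its largest nuclear-encoded subunit, at 878 TPM, and that of complex I by symbol was Ndufa4 at 705 TPM, whose protein is now placed in complex IV. Uqcrh, the hinge protein of complex III, stood at 579 TPM and Sdhb, the iron-sulfur subunit of complex II, at 224 TPM. Between the lowest and the highest of the 14 group means, 70 of 82 nuclear members (85.4%) stayed within 2-fold, against 57.6% of the 13204 genes with a mean of at least 5 TPM. The mean levels of those 13204 genes had a median of 26.2 TPM, so the comparison is not matched for level. The members with the widest relative spread were Ndufa4l2, Cox6c2, Atp5g2, Cox8b and Cox6b2, with coefficients of variation of 244%, 97.0%, 82.3%, 63.7% and 42.9%. The mitochondrial members were higher and less even, with a median of 2954 TPM, a range of 813 TPM to 9464 TPM for mt-Co1, and 3 of 13 within 2-fold. Group means spread the most for mt-Nd3 (19.2-fold), mt-Co3 (8.42-fold) and mt-Co2 (5.29-fold). These had 134, 1 and 0 unique counts over all libraries, so their TPM rest on multiply mapped reads divided among copies.

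Between P21 and P0 in WT, most nuclear members were not called, while some accessory subunits and isoforms changed. Cox8b rose 4.12 ± 0.35 on the log2 scale (standard error) and Ndufa4l2, the hypoxia-inducible paralog of Ndufa4, fell. Of 80 nuclear members that passed the count filter, 12 were higher and 9 lower (edgeR quasi-likelihood test, adjusted p under 0.05). Among all 19927 genes tested, 50.8% were called, 24.0% higher and 26.8% lower, so the members' 26.3% lay below the background. The median size of the members' log2 fold changes was 0.15, against 0.52 for all genes and 0.36 for the 9200 genes with at least 20 CPM. The median of the members with sign was -0.01. With upper-quartile factors the split of calls was 12 higher to 5 lower. Without the filter on low counts 11 were called, 8 higher and 3 lower, and with 1 library left out the count was 14 to 18, the lowest without WT P21 replicate 2. On TPM limma called 16 higher and 4 lower of 82 members, with 22.8% of all genes called higher, 17.3% lower and 40.1% in all. In bulk tissue, fewer cells of a type and less RNA per cell cannot be told apart.

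**Figure D2:**
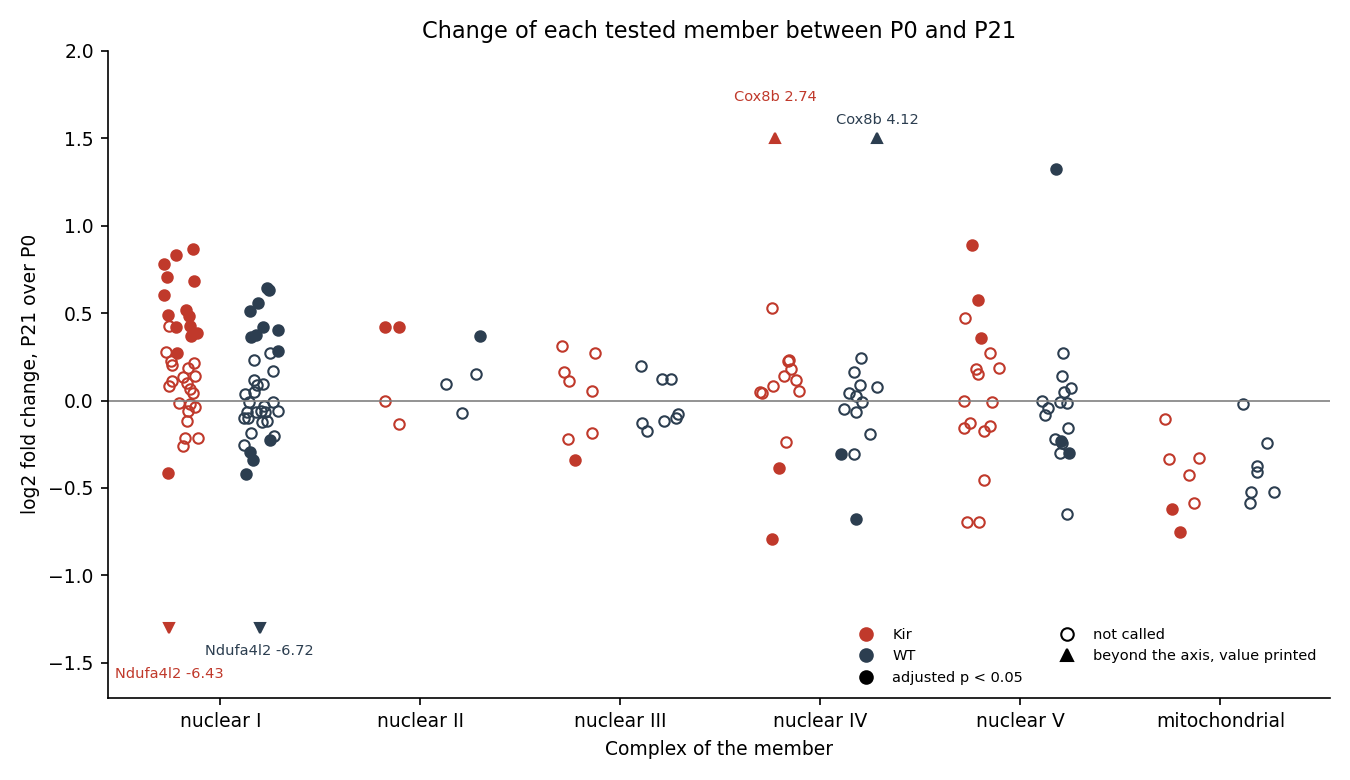
Log2 fold change of each member at P21 over P0 (y axis), by complex (x axis), in Kir and in WT, with filled symbols for members called at an adjusted p under 0.05. Triangles at the edge stand for Cox8b, at 2.74 in Kir and 4.12 in WT, and Ndufa4l2, at -6.43 in Kir and -6.72 in WT. The 80 nuclear members have a median of 0.14 in Kir and -0.01 in WT, and mt-Nd3 is not drawn.

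In complex I, 9 of 37 nuclear members tested were higher and 5 lower at P21 in WT. Ndufv3, an accessory subunit of the NADH-oxidising module, rose to 420, 365 and 533 TPM in WT P21, against 243, 213, 209 and 255 TPM in WT P0. The groups did not overlap, and the log2 fold change was 0.64 ± 0.12 (edgeR adjusted p = 2.85e-05). Ndufa4 had 921, 759 and 1006 TPM in WT P21 and 691, 621, 606 and 549 TPM in WT P0, a log2 fold change of 0.51 ± 0.13 (adjusted p = 0.000859), also without overlap. Other accessory subunits called higher were Ndufb4 (0.64), Ndufb2 (0.56), Ndufa1 (0.42), Ndufb3 (0.37) and Ndufs4 (0.36). Among the conserved core subunits, Ndufs8 (0.40) and Ndufs1 (0.28) were higher and Ndufs3 (-0.42) lower. Ndufa8 (-0.34) and Ndufa10 (-0.22), both accessory, were also lower. For Ndufb4 and Ndufs3, 37.0% and 35.8% of the 50-base stretches of their transcripts also occur in other annotated genes, so their counts are less certain.

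In complex II, Sdhb was called higher in WT, with 220, 188 and 245 TPM in P21, against 157, 166, 141 and 161 TPM in P0 (log2 fold change 0.37 ± 0.13, edgeR adjusted p = 0.0138). Every P21 library lay above every P0 library, but without WT P21 replicate 3 the call was lost, at 0.22. The membrane anchor Sdhd was at -0.07 and not called. In complex III no member was called by edgeR or by limma on TPM, and none had an unadjusted p under 0.05 in edgeR. Uqcrq (0.20) and Uqcrc1 (-0.18), one of the core proteins, marked the ends of the range and Uqcrh was at 0.12. Cox5a, a subunit of complex IV that lines its matrix side, had 307, 301 and 331 TPM in WT P21 and 259, 242, 215 and 246 TPM in WT P0. The TPM values did not overlap, yet the count-based difference of 0.24 ± 0.16 was not called (edgeR adjusted p = 0.214). On TPM the difference was 0.38 and called (limma adjusted p = 0.0130).

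Cox4i1 of complex IV was lower in WT P21, by -0.30 ± 0.12 (edgeR adjusted p = 0.0337), with 754, 680 and 764 TPM, against 873, 914, 816 and 762 TPM in P0. The ranges overlapped in 1 library, and the call was lost without WT P0 replicate 2, WT P21 replicate 1 or WT P21 replicate 2. Atp5b of complex V fell by 0.30 on the log2 scale (adjusted p = 0.00694), though its TPM of 1315, 1247 and 1104 in WT P21 overlapped 1271, 1378, 1337 and 1291 in WT P0. On TPM its difference was -0.11 and not called, and without WT P21 replicate 2 the counts gave -0.23 with no call. Atp5g3, which encodes the rotor's c subunit, was lower by -0.23 ± 0.09 (adjusted p = 0.0380), a call lost without any 1 of 4 of the 7 libraries (WT P0 replicates 1 and 3, WT P21 replicates 1 and 2). Atp5s, called coupling factor B, rose by 1.33 ± 0.18 (adjusted p = 2.31e-07), to 33.1, 41.2 and 37.0 TPM in WT P21, against 4.93, 18.7, 8.29 and 17.3 TPM in WT P0.

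The isoform with the largest gain was Cox8b (chromosome 7, 140898945 to 140900446, minus strand, mm10), whose promoter is printed above. It had 92.9, 116 and 119 TPM in Kir P21 and 11.4, 6.07, 10.1 and 35.5 TPM in Kir P0. In WT it had 159, 125 and 118 TPM at P21 and 5.08, 7.08, 5.53 and 9.70 TPM at P0. In both genotypes the lowest P21 library lay far above the highest P0 library. Its partner Cox8a had 632, 535 and 731 TPM in Kir P21, 532, 516, 540 and 465 TPM in Kir P0, 567, 565 and 662 TPM in WT P21 and 592, 457, 578 and 606 TPM in WT P0. The count-based log2 fold change of Cox8a in WT was -0.01, and its sign turned with the scaling (0.06 with upper-quartile factors).

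The share of Cox8b in the summed Cox8a and Cox8b TPM was highest at P21 in both genotypes. It averaged 3.04%, 5.80%, 5.07%, 8.02%, 7.73%, 11.8% and 14.9% in Kir over the 7 ages in order. In WT it averaged 1.23%, 5.62%, 4.22%, 7.14%, 6.79%, 12.3% and 18.4%. P21 and P0 did not overlap in either genotype, with an exact permutation p of 0.0571 in both, the smallest that 3 against 4 libraries can give (adjusted over the pairs, 0.0667 in Kir and 0.0800 in WT). Cox8b is a gene of skeletal muscle and brown fat, so their markers are given beside it. The 16 skeletal muscle markers summed to 20.5 to 26.8 TPM in Kir P21 and 19.6 to 22.7 TPM in WT P21, against 19.5 to 57.6 TPM in WT P0. Of the 12 that were tested, edgeR called 0 between WT P21 and P0, with a median log2 fold change of -1.36. In Kir P21 against P0, 10 were called lower (25.9% of all genes were) and 0 higher, with a median of -6.03. The fit estimates a shared spread from all 47 libraries, including Kir P0 replicate 4 and WT P3 replicate 1 with high muscle sums. The missing WT calls therefore do not show that muscle was unchanged. In Kir P0 the sum was 14.9 to 29.7 TPM in 3 libraries and 3469 TPM in replicate 4, the library with the highest Cox8b of that group. Without it the Cox8b log2 fold change in Kir was 3.53 instead of 2.74. The 5 fat markers summed to 59.8 to 62.9 TPM in Kir P21, 29.8 to 70.8 TPM in Kir P0, 51.1 to 67.5 TPM in WT P21 and 31.4 to 67.7 TPM in WT P0. Ucp1, which defines brown fat, did not exceed 0.73 TPM in any library and was listed at 0 in 7. Of the 5 fat markers, 3 passed the count filter. In WT P21 against P0, Cidea was called higher (0.84), Fabp4 was called lower (-3.70, edgeR adjusted p = 0.000327) and Adipoq (0.70) was not called. In Kir P21 against P0, Cidea was called higher (1.14) and Fabp4 lower (-2.75).

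**Figure D3:**
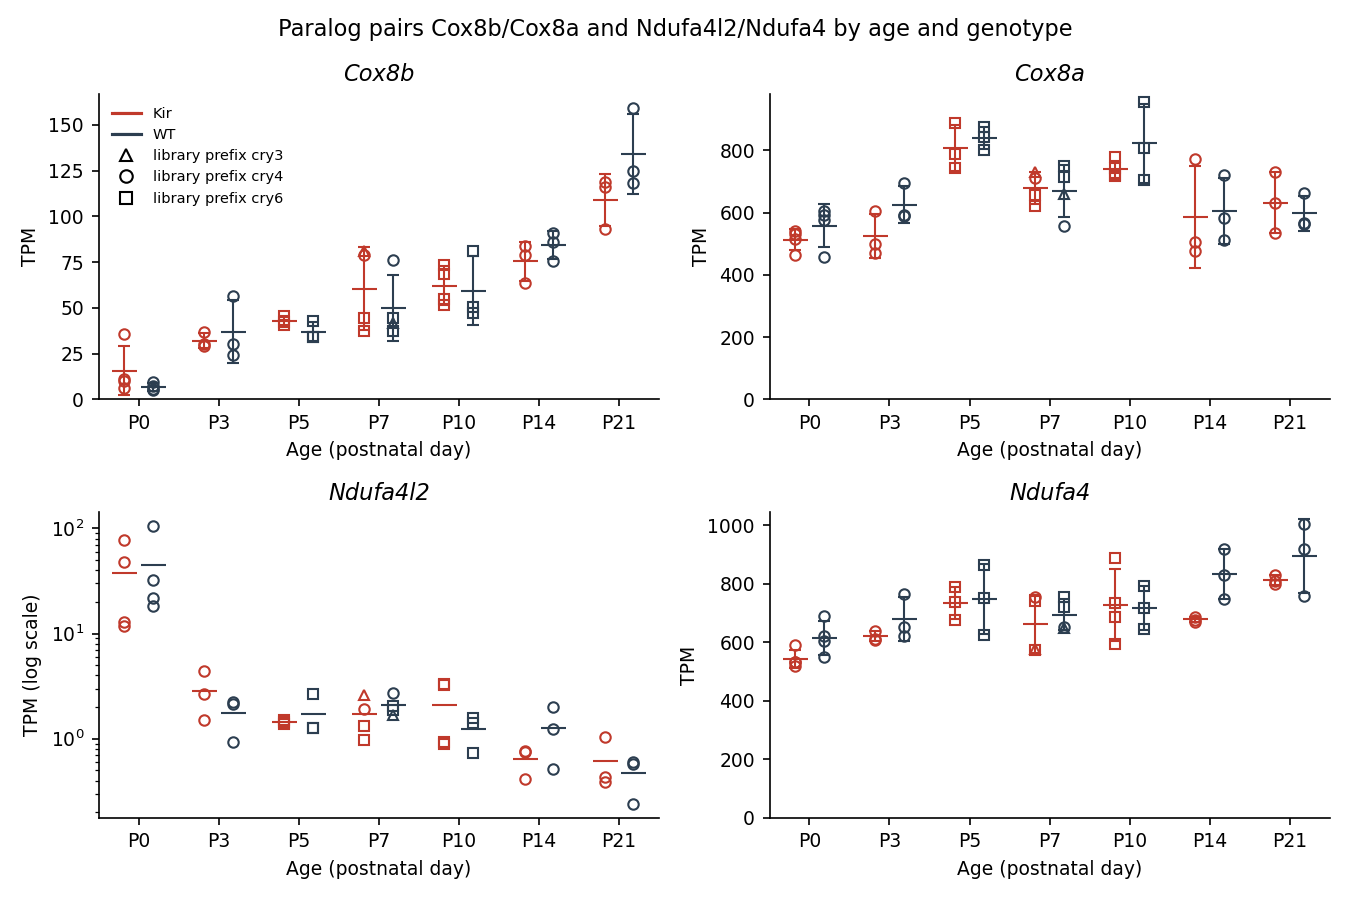
TPM (y axis) of Cox8b and Cox8a and of Ndufa4l2 and Ndufa4 by age (x axis), with 1 symbol per library, Kir in red left of WT in dark. Bars give the group mean and its SD, or the mean alone on the log axes. Group means span 19.6-fold for Cox8b and 93.9-fold for Ndufa4l2, in opposite directions with age.

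Ndufa4l2 (chromosome 10, 127514967 to 127517154, plus strand, mm10) showed the reverse course. It had 0.43, 1.04 and 0.39 TPM in Kir P21 and 47.6, 12.8, 11.7 and 78.2 TPM in Kir P0. WT libraries had 0.24, 0.60 and 0.58 TPM at P21 and 32.1, 18.3, 21.8 and 105 TPM at P0. Levels were low already at P3, with 4.36, 1.52 and 2.66 TPM in Kir and 2.24, 0.94 and 2.13 TPM in WT. At P21 the gene rested on 1 to 5 counts per library, 9 in each genotype in all, against 1061 counts in Kir P0 and 1244 in WT P0. Replicate 4 held 558 of the counts in Kir P0 and 732 of those in WT P0. Relative to all gene counts it was 87.5-fold lower at P21 in Kir (95% counting interval 45.9 to 192) and 114-fold lower in WT (60.0 to 250). These exact intervals cover counting error only. The edgeR log2 fold changes were -6.43 in Kir (adjusted p = 2.57e-08) and -6.72 in WT (adjusted p = 1.11e-08). Without P0 replicate 4 of the genotype they were -5.76 in Kir and -5.88 in WT.

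Its share of the summed Ndufa4 and Ndufa4l2 TPM was 0.0766% in Kir P21 and 6.33% in Kir P0, and 0.0542% in WT P21 and 6.72% in WT P0. Cartilage markers and hypoxia genes also had higher sums at P0. The 3 cartilage markers summed to 4.81 to 5.34 TPM in Kir P21 and 144 to 2178 TPM in Kir P0, and to 3.46 to 7.60 TPM in WT P21 and 18.2 to 2031 TPM in WT P0. The 10 hypoxia genes summed to 285 to 367 TPM in Kir P21, 417 to 561 TPM in Kir P0, 290 to 356 TPM in WT P21 and 453 to 654 TPM in WT P0. In WT, 6 of the 10 were lower at P21 and none was higher, led by Car9 (-5.76), Vegfa (-2.01) and Slc2a1 (-1.12). Of the 7 pericyte and smooth muscle markers, 3 were called higher and 3 lower in WT P21, with sums of 442 to 516 TPM in P21 and 303 to 380 TPM in P0. All 4 endothelial markers were called lower in Kir P21 against P0 (median log2 fold change -2.20), in WT P21 against P0 (-1.79) and in WT P3 against P0 (-1.16). They summed to 10.7 to 15.5 TPM in Kir P21 and 39.5 to 69.0 TPM in Kir P0, and to 10.03 to 18.4 TPM in WT P21 and 43.0 to 61.7 TPM in WT P0. The part of these in the change of Ndufa4l2 was not tested.

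The shares of the other isoform pairs were compared in the same way. Cox6b2, an isoform of Cox6b1 known from testis, made up 3.20% of the pair's TPM in Kir P21 and 5.53% in Kir P0, and 2.88% in WT P21 and 4.02% in WT P0, without overlap. Its level peaked at P3 in WT, where it had 45.7, 37.6 and 35.0 TPM, above all P0 and P21 libraries of either genotype, which ran from 10.5 to 27.7 TPM. Atp5g1 and Atp5g3 encode the same mature c subunit with different import sequences. In WT the level of Atp5g1 was lower at P21 by -0.64 on TPM (limma adjusted p = 0.000972), while the counts gave -0.65 ± 0.39 with no call (edgeR adjusted p = 0.170). The count fit estimates a shared spread from all 47 libraries, and Atp5g1 had 51.7, 51.5, 6.34 and 6.03 CPM within Kir P10. The part of that split in the missing call was not tested. Atp5g1 made up 19.2% of their sum in Kir P21 and 27.3% in Kir P0, and 19.1% in WT P21 and 25.9% in WT P0, again without overlap. For each of these shares the exact p was 0.0571 as well. Cox7a1, the heart and muscle isoform of Cox7a2, held 4.22% in Kir P21 and 4.19% in Kir P0, and 5.33% in WT P21 and 5.79% in WT P0, with overlap (exact p = 1 in Kir and 0.629 in WT). Cox7a2l, a supercomplex factor, had 36.5% of its sum with Cox7a2 in Kir P21 and 44.3% in Kir P0, and 35.7% in WT P21 and 44.1% in WT P0 (exact p = 0.0571 in both).

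None of the 8 mitochondrial members tested was called between WT P21 and P0 by edgeR, DESeq2 or limma on TPM, and 3 had an unadjusted p under 0.05 in edgeR. Those 3 were mt-Nd2, mt-Nd6 and mt-Nd3, the last with only 134 counts in all 47 libraries. All 8 log2 fold changes were below 0, with mt-Nd2 at -0.59, mt-Nd1 and mt-Nd6 at -0.52, mt-Cytb at -0.41, mt-Nd5 at -0.37, mt-Nd4 at -0.24 and mt-Co1 at -0.02. WT P21 replicate 3 stood apart from the other 2 P21 libraries. For mt-Nd1, a core subunit of complex I, WT P21 had 3304, 3402 and 6774 TPM, against 6639, 5256, 5351 and 6428 TPM in WT P0. For mt-Cytb, the cytochrome b of complex III, WT P21 had 6356, 6368 and 9386 TPM, against 9602, 9278, 8493 and 9315 TPM in WT P0. Replicate 3 was within or above the P0 range and the other 2 libraries below it. Without that library 6 of the 8 were called lower. The 5 remaining mitochondrial members had 0 or 1 unique counts, and of these mt-Co2, mt-Co3, mt-Atp6 and mt-Nd4l share 98.8% to 100% of their 50-base stretches with annotated nuclear genes. On TPM their differences were -0.03 for mt-Atp6, -0.19 for mt-Atp8, 0.09 for mt-Co2, 0.22 for mt-Co3 and -0.10 for mt-Nd4l. For mt-Nd3 the TPM difference was 0.09. All these are on the log2(TPM + 1) scale.

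Within the WT course, Cox8b was called higher in both intervals up to P14. Between P3 and P0, 3 nuclear members were higher and 2 lower of 80, with 20.5% of all genes called, 8.61% higher and 11.9% lower. Cox8b (2.15 ± 0.36, edgeR adjusted p = 6.71e-05) and Ndufa4l2 (-5.15 ± 0.68, adjusted p = 2.46e-06) had the smallest p in each direction. Cox8b had 56.4, 30.5 and 24.3 TPM in WT P3, and the highest value was that of replicate 1, the library with 280 TPM of muscle markers. Without it the difference was 1.85. Of the mitochondrial members, 3 of 8 were lower at P3. They were mt-Nd2 (-1.02), mt-Cytb (-0.73) and mt-Nd4 (-0.69), and none was called without WT P3 replicate 1 or with WT P0 replicate 3 placed by its stage label. Between P14 and P3, 3 nuclear members were higher and 1 lower, with 22.6% of all genes called, 12.9% higher and 9.7% lower. Cox8b rose again, by 1.22 ± 0.33 (adjusted p = 0.00722), a call lost without WT P3 replicate 3 at 0.97. Cox6b2 fell by 1.66 on the log2 scale (adjusted p = 3.40e-06), to 8.84, 15.16 and 14.04 TPM in WT P14. Ndufs1 (0.25) and Ndufb4 (0.62) were the other called members.

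Later and within the cry6 libraries no member was called. Between WT P21 and P14, edgeR, DESeq2 and limma called 0 nuclear and 0 mitochondrial members, with 1 nuclear and 0 mitochondrial members at an unadjusted p under 0.05 in edgeR, and 0.0452% of all genes were called by edgeR and 0.0515% by limma. Between WT P10 and P5 they also called 0 and 0, with 2 and 0 at an unadjusted p under 0.05. Of all genes, 1.93% were called by edgeR and 0.37% by limma.

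In Kir, P21 against P0 gave 20 nuclear members higher and 5 lower of 80 and 2 mitochondrial members lower of 8, with 48.9% of all genes called, 22.9% higher and 25.9% lower. On TPM limma called 31 higher and 5 lower of 82, with 37.9% of all genes called. Of the calls on counts, 15 nuclear members were also called in WT, 71.4% of the WT calls and 60.0% of the Kir calls, and all 15 in the same direction. The same overlap was not counted over all genes. With 50.8% of all genes called in WT and 48.9% in Kir, it is not shown to be particular to the members. The 15 include Cox8b (2.74 ± 0.32, edgeR adjusted p = 1.47e-08), Ndufv3 (0.71), Ndufa4 (0.48), Sdhb (0.42), Atp5s (0.89) and Cox6b2 (-0.79). Called in Kir alone were Ndufa3, Ndufa5, Ndufa9, Ndufa13, Ndufb10, Sdha, Uqcrc1, Cox7a2l, Atp5j2 and Atp5k, and those called in WT alone included Atp5b, Atp5g3, Cox4i1, Ndufa8 and Ndufa10. Ndufa5, an accessory subunit of complex I, had 265, 279 and 377 TPM in Kir P21 and 136, 222, 127 and 172 TPM in Kir P0, and 235, 199 and 241 TPM in WT P21 and 282, 180, 210 and 158 TPM in WT P0. The Kir ages did not overlap and the WT ages did. Ndufa5 rose in Kir by 0.87 ± 0.18 (adjusted p = 0.000124).

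The change itself was compared between genotypes. A difference in the P21 minus P0 change between Kir and WT was called for none of the 80 nuclear or 8 mitochondrial members by edgeR, DESeq2 or limma, with 5 and 0 members at an unadjusted p under 0.05 in edgeR. Of all genes, 0.286% were called by edgeR and 0.215% by limma. The smallest p were those of Ndufa5 (difference 0.75 ± 0.25, edgeR adjusted p = 0.380) and Cox8b (-1.39 ± 0.48, adjusted p = 0.401). A call in one genotype alone therefore does not show a genotype difference. The 2 mitochondrial calls in Kir were mt-Nd1 (-0.75 ± 0.30, adjusted p = 0.0390) and mt-Cytb (-0.62 ± 0.22, adjusted p = 0.0172). mt-Nd1 had 3801, 3710 and 2903 TPM in Kir P21, against 6214, 4990, 6089 and 4940 TPM in Kir P0, without overlap. Neither was called without Kir P21 replicate 3. Only 1 of the 2 was called without any 1 of Kir P0 replicates 1 and 3 and Kir P21 replicates 1 and 2. Without the 5 Kir libraries with low Kcnj2, 15 nuclear and 0 mitochondrial members were called. They include replicates 1 and 2 of Kir P21, so the lone P21 library was then assumed to vary like the other groups.

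Between Kir and WT of the same age, no member was called by edgeR, DESeq2 or limma at P0, P3, P5, P7, P14 or P21. The shares of all genes called by edgeR at these ages were 1.09%, 0.703%, 0.105%, 0.0903%, 1.17% and 0.743%, and those by limma 0.0281%, 0.281%, 0.0234%, 0.0375%, 1.14% and 0.632%. Nuclear members with an unadjusted p under 0.05 in edgeR numbered 3, 1, 0, 0, 4 and 2 at these ages, and mitochondrial members 0 at each. A single nuclear member was called at P0 without Kir P0 replicate 2 or WT P0 replicate 4, and 1 at P14 without Kir P14 replicate 2. Kcnj2 ran from 132 to 959 CPM in Kir P3, from 146 to 1140 CPM in Kir P7 and from 209 to 1050 CPM in Kir P21. The lack of calls at P3, P7 and P21 therefore rests in part on Kir libraries with low Kcnj2.

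At P10, 5 nuclear members were higher in Kir and none lower, with 3.13% of all genes called and 2.83% called higher. They were Atp5g2 (3.97 ± 0.79, edgeR adjusted p = 0.00123), Cox7c (2.14), Atp5g1 (2.09), Atp5h (1.31) and Uqcrb (1.12). All 5 rested on Kir P10 replicates 1 and 2, the libraries with many unmapped and few multiply mapped reads. Atp5g1 had 51.7, 51.5, 6.34 and 6.03 CPM in Kir and 6.41, 6.42 and 7.36 CPM in WT. Its TPM, for which reads shared between copies are divided among them, were 204, 212, 192 and 178 in Kir and 209, 162 and 195 in WT. The 2 libraries stood apart in the counts of Atp5g1 and not in its TPM. For Cox7c, a small subunit of complex IV, the CPM were 73.2, 82.4, 12 and 11.02 in Kir and 13.2, 7.11 and 9.97 in WT, and the TPM 372, 414, 516 and 452 in Kir and 461, 427 and 409 in WT. Without the 2 libraries no member was called at P10 and Atp5g2 was at -0.32, an alternative chosen after seeing the data. Limma on TPM called none either (0.796% of all genes), with 3 nuclear and 2 mitochondrial members at an unadjusted p under 0.05.

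Atp5g2, the third gene of the c subunit, differed in level mainly between prefixes. It had 117 to 383 TPM in the 28 cry4 libraries (median 205), 6.46 and 8.63 TPM in the 2 cry3 libraries and 4.54 to 16.0 TPM in 15 of the 17 cry6 libraries. The other 2 cry6 libraries, Kir P10 replicates 1 and 2, had 333 and 310 TPM, against 11.6 and 8.13 TPM in Kir P10 replicates 3 and 4 and 14.5, 8.40 and 7.35 TPM in WT P10. At P7, where the prefixes meet, the cry4 libraries had 296 TPM in Kir and 181 TPM in WT, and the 6 others 4.54 to 8.63 TPM. Of the 95 members, Atp5g2 and mt-Co3 differed by over 2-fold between cry4 and the other libraries at P7 (34.1-fold and 4.97-fold) in TPM, and 89 differed by under 1.5-fold. Both share most of their sequence with other annotated genes, 87.4% of the 50-base stretches of Atp5g2 and 99.9% of those of mt-Co3. Of the other members called at P10, Cox7c shared 53.0%, Atp5h 50.5% and Uqcrb 43.2%. Apart from Kir P10 replicates 1 and 2, their counts and those of Atp5g1 also differed between cry4 and cry6 libraries without overlap. Atp5g1 had 23.3 to 51.8 CPM in the 28 cry4 libraries (median 32.1) and 5.82 to 7.84 CPM in the 15 cry6 libraries other than Kir P10 replicates 1 and 2 (median 7.07). The medians in the same 2 sets of libraries were 35.9 and 11.7 CPM for Cox7c, 126 and 41.2 CPM for Atp5h and 48.4 and 13.8 CPM for Uqcrb.

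**Figure D4:**
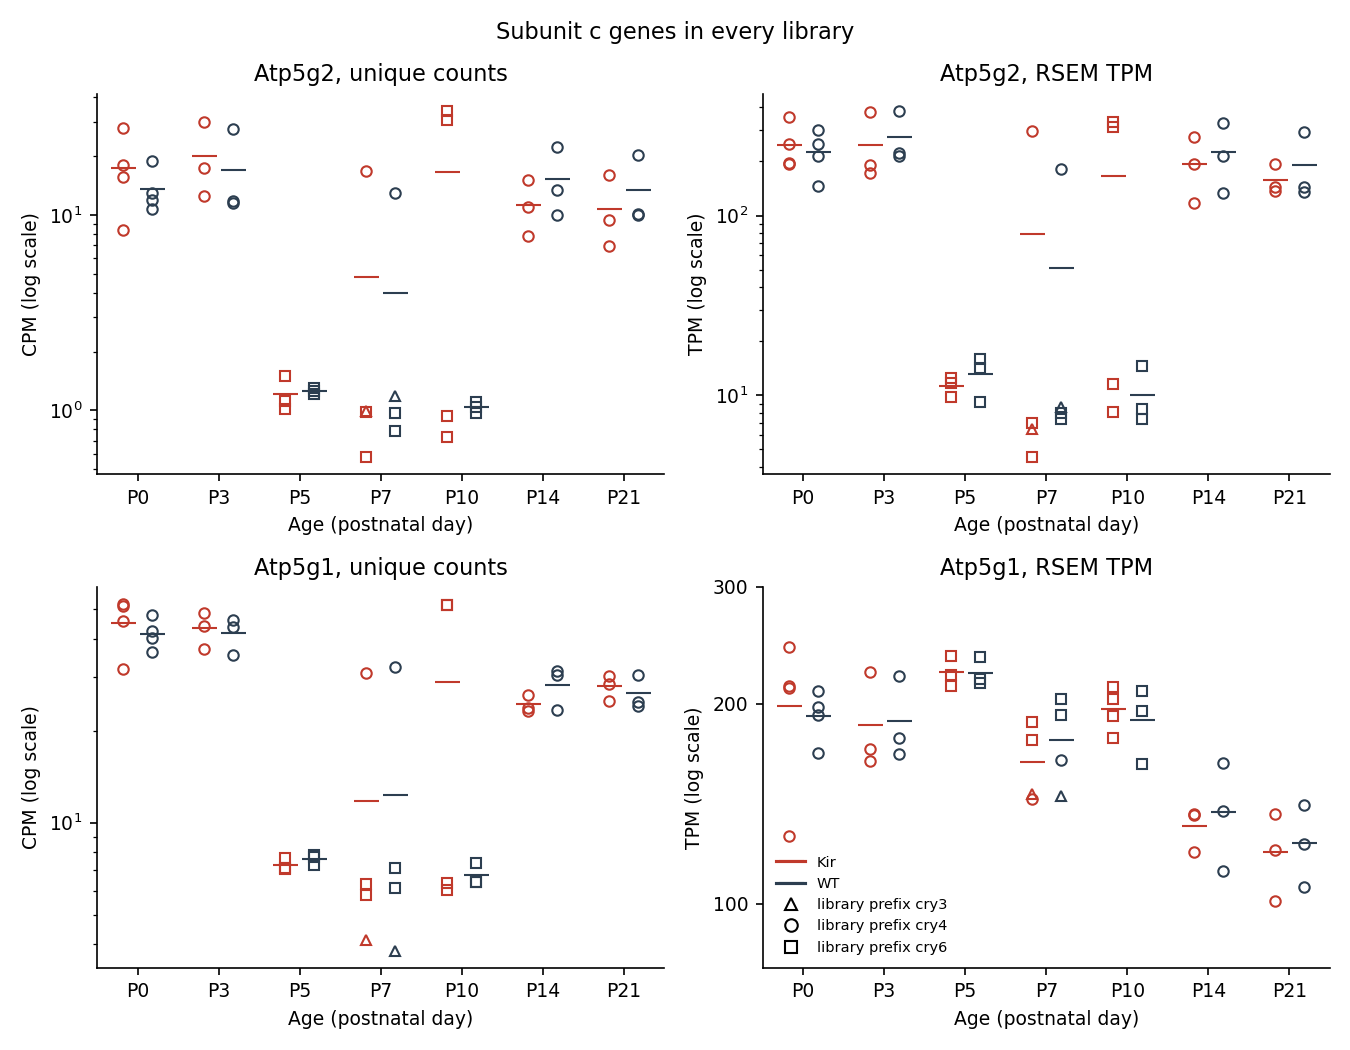
Atp5g2 and Atp5g1 in CPM from unique counts and in TPM (y axes, log scale) by age (x axis), with 1 symbol per library, Kir in red left of WT in dark, circles for cry4, squares for cry6 and triangles for cry3, and lines for group means. At P10, Kir replicates 1 and 2 have 30.5 and 34.0 CPM of Atp5g2, against 0.733 to 1.10 CPM in the other 5 libraries, and their Atp5g1 stands apart in CPM but not in TPM.

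Averaged over the 7 ages, with each age weighted equally, 3 of 80 nuclear members were lower in Kir and none was higher. Among all genes 10.5% were called, 7.43% lower and 3.12% higher. The 3 were Ndufs1, the iron-sulfur core subunit of complex I (-0.13 ± 0.03, edgeR adjusted p = 0.00523), Ndufv3 (-0.14 ± 0.05, adjusted p = 0.0395) and Cox5a (-0.18 ± 0.06, adjusted p = 0.0488). For each gene the Kir mean was below the WT mean at 7 of 7 ages. These ages make up the average by which the 3 genes were chosen, so their signs are no separate support.

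Ndufs1 had 114, 108, 104 and 111 CPM in Kir P0, against 138, 129, 126 and 117 CPM in WT P0. At P5 it had 114, 114 and 116 CPM in Kir and 129, 125 and 128 CPM in WT, and at P14 132, 129 and 126 CPM in Kir and 158, 136 and 159 CPM in WT. At these 3 ages Kir and WT did not overlap, and at the other 4 they did. Cox5a, for comparison, had 54.2 ± 8.63 CPM in Kir P0 and 58.5 ± 6.62 CPM in WT P0 (SD, n = 4), and 63.5 ± 5.46 CPM in Kir P21 and 69.2 ± 8.99 CPM in WT P21 (n = 3). Ndufv3 had 85.8 ± 5.52 CPM in Kir P0 and 95.1 ± 5.42 CPM in WT P0, and 140 ± 7.23 CPM in Kir P21 and 148 ± 33.5 CPM in WT P21. Neither Cox5a nor Ndufv3 was free of overlap at any age.

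**Figure D5:**
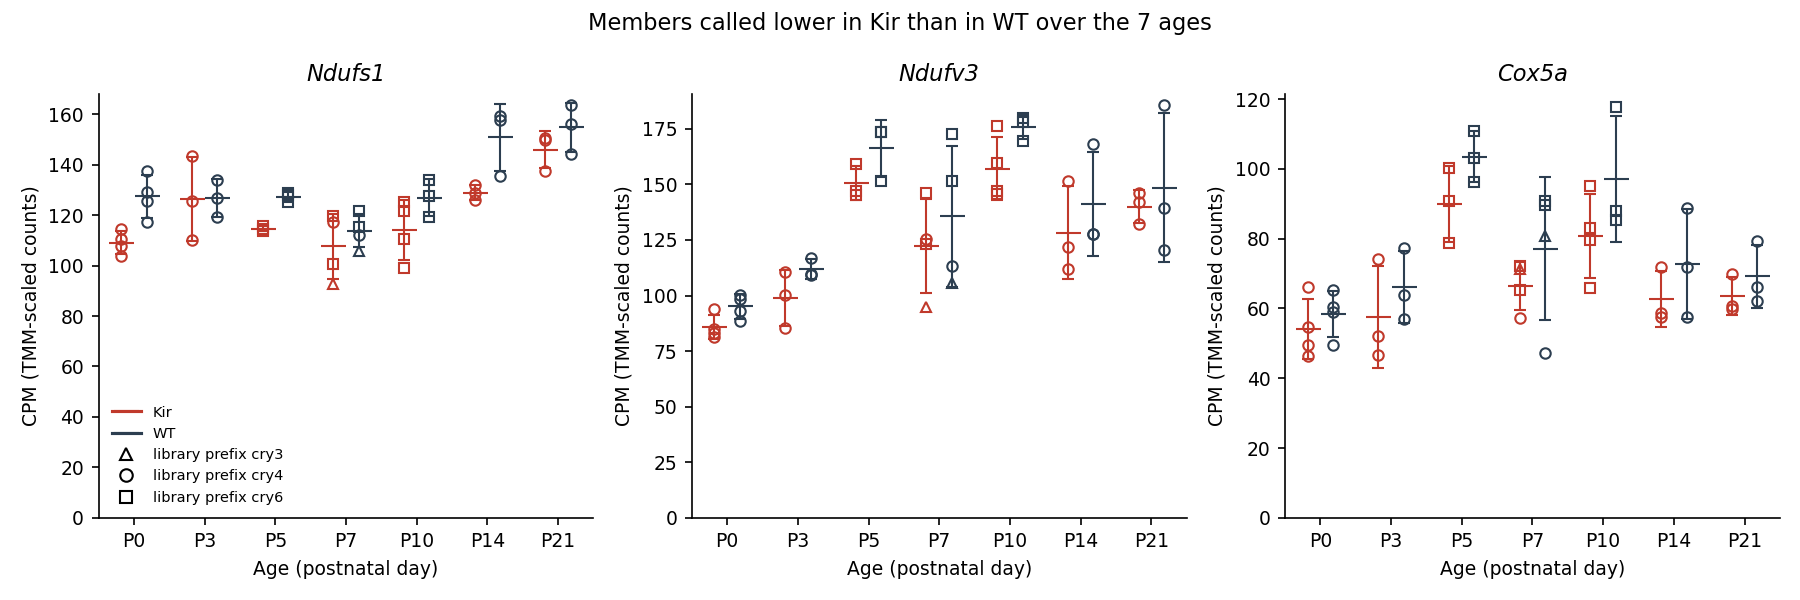
CPM (y axis) of Ndufs1, Ndufv3 and Cox5a by age (x axis), with 1 symbol per library, Kir in red left of WT in dark, and bars for the mean and SD. The genes were chosen by their average over these 7 ages. The Kir mean lies below the WT mean at all 7 ages for each gene, and the libraries overlap at most ages.

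Each of the 3 calls depended on settings. The call of Ndufs1 was lost without the filter on low counts (-0.12, adjusted p = 0.0973) and with the replicate number as a block (-0.13, adjusted p = 0.176), both by edgeR. The block says little here, since replicate numbers were not shown to pair samples outside P3 and were arbitrary in the cry6 and cry3 libraries. Limma on TPM called 2 members lower, with 6.45% of all genes called. Leaving out any 1 of 36 of the 47 libraries ended the call of Cox5a and any 1 of 30 that of Ndufv3, while Ndufs1 kept its call without any single library. On TPM, limma called Cox5a (adjusted p = 0.0139) and Ndufv3 (adjusted p = 0.0453) but not Ndufs1 (adjusted p = 0.0632). Without Kir P10 replicates 1 and 2, the count was 1. Cox7a1 was at -0.31 ± 0.12 and not called (edgeR adjusted p = 0.101). No mitochondrial member was called by edgeR, DESeq2 or limma, 0 of 8 had an unadjusted p under 0.05 in edgeR, and the largest differences were those of mt-Nd1 and mt-Nd2, both -0.09. Cell type markers are given for the same average, in which 7.43% of all genes were lower and 3.12% higher in Kir. All 11 mature sensory neuron markers were lower in Kir, with a median log2 fold change of -0.42, and 1 of 7 immature sensory neuron markers was lower. Of the others, 0 of 5 sustentacular markers were called and 4 of 4 macrophage markers were higher. The part of these cell types in the differences of Ndufs1, Ndufv3 and Cox5a was not tested.

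Genes that build or feed the respiratory chain were followed as lists. Between WT P21 and P0, 7 of 15 complex I assembly factors were higher and 1 lower, among them Ndufaf5 (0.81), Ndufaf4 (0.64) and Timmdc1 (0.51), against the 24.0% and 26.8% of all genes given above. Of 4 complex II factors 2 were higher (Sdhaf4, 0.84, and Sdhaf3, 0.56), of 6 complex III factors 1 (Lyrm7, 0.89), and of 3 complex V factors 1 was lower (Atpaf2, -0.44). The 17 tested complex IV factors split into 4 higher and 3 lower, with Coa5 at 0.42, Sco1, a copper chaperone, at -0.47 and Coa7 at -0.45. Coenzyme Q synthesis had 3 of 13 higher and 2 lower (Coq10a 0.76, Coq2 0.51, Coq8a -0.57). Ndufab1, the acyl carrier protein of complex I, was higher by 0.41, while Cycs (cytochrome c, 0.54) and Cyc1 (cytochrome c1, -0.21) were not called.

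The pathways that supply electrons are set beside the 50.8% of all genes called in WT P21 against P0, 24.0% higher and 26.8% lower. Of 16 genes of the TCA cycle and pyruvate dehydrogenase, 4 were higher, including Ogdh (0.57) and Idh3b (0.33), and 2 lower, including Suclg2 (-0.67). Of 18 glycolysis and lactate genes tested, 2 were higher (among them Pfkm, 0.71) and 6 lower. Ldha, lactate dehydrogenase A, had the largest fall, -2.20 ± 0.31 (edgeR adjusted p = 3.04e-07), and Aldoc was at -1.04. Of 11 mitochondrial carriers, 2 were higher, among them Slc25a12 (0.54), and 3 lower, among them its paralog Slc25a13 (-1.03) and the ATP/ADP carrier Slc25a4 (-0.79).

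Genes that copy and express the mitochondrial genome were more often called lower than higher in WT P21, where 24.0% of all genes were higher and 26.8% lower. Of 20 in replication and transcription, 2 rose and 8 fell, among them Twnk (-0.59), the helicase, Tfam (-0.34), which packages the genome, and Supv3l1 (-0.43), while Rrm2b (0.86) rose. Of 77 mitochondrial ribosome genes, 6 were higher and 29 lower, with Mrpl48 at 0.79, Mrps7 at -0.76 and Mrpl39 at -0.62. In Kir, P21 against P0, the counts were 1 higher and 3 lower of 20 and 9 higher and 10 lower of 77. Among all genes 22.9% were higher and 25.9% lower in Kir. These are counts beside the background only, with no test of the lists, and the difference between genotypes in these lists was not tested. Of 10 transcriptional regulators of mitochondrial genes, 2 were higher and 4 lower in WT P21. Ppargc1b (0.87) and Nrf1 (0.25), which encodes nuclear respiratory factor 1, were higher, and Pprc1 (-0.84) and Esrrg (-1.37) lower. Ppargc1a (-0.27), Esrra (0.33) and Gabpa (-0.22) were not called.

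Averaged over ages, Kir against WT had 10.5% of all genes called, 7.43% lower and 3.12% higher. TCA cycle genes had 3 lower of 16, glycolysis 3 lower of 18, regulators 2 lower of 10, and coenzyme Q synthesis and carriers 1 lower each. In genes that copy and express the mitochondrial genome 1 was higher and 1 lower of 20. No assembly factor of complexes I to V and no mitochondrial ribosome gene was called by edgeR in that comparison.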

How the data were processed

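Poly(A) RNA from mouse olfactory epithelium was extracted with TRIzol and made into libraries with an Illumina mRNA kit, per the labels' protocols. Per the submitters' processing notes, reads were handled with bcl2fastq 2.18 and STAR 2.6.1c and RSEM was used, on mm10. No source used here gives the annotation, the strand setting or any read filter. The authors deposited whole read counts per gene and TPM values per gene. The 4 non-gene lines of each count file (unmapped, multiply mapped, no feature, ambiguous; unmapped reads were 1.31% to 33.5% of a library) were kept out of library sizes and tests. Counts of genes with near-identical copies lack multiply mapped reads, whereas RSEM divides these among copies. With strand unknown, reads of a gene and its antisense partner cannot be told apart, as for 2.92% of the exons of Ndufa4l2.

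The main test on counts used edgeR 4.0.16 under R 4.3.3: filterByExpr by group, TMM factors, a quasi-likelihood fit over all 47 libraries with a mean for each of the 14 groups and a term for the title prefix, and Benjamini-Hochberg adjustment over 19927 genes, called at an adjusted p under 0.05. TPM were tested with limma 3.58.1 on log2(TPM + 1) over 21357 genes with a mean of at least 0.5 TPM, a scale that understates the change of low genes. Isoform shares were compared with exact two-sided permutation tests (scipy 1.17.1). Tables were handled with Python 3.11.15 and pandas 2.3.3 and figures drawn with matplotlib 3.10.9. Scripts were tested on simulated data. The members, the gene lists and the rule for named genes were chosen with earlier results of these data known. That rule took, for WT P21 against P0, the most abundant member and the largest rise and fall of each complex, all mitochondrial members, the isoform pairs and Cox5a. Elsewhere it took the called members with the smallest p, 3 called genes for each list, and set regulators. Other members named (among them Ndufv3 and Ndufa5 by age, and the further called members) were chosen after their values were seen.

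Alternatives were DESeq2 1.42.0, upper-quartile factors, no filter on low counts, no prefix term, mitochondrial genes left out of library sizes, limma on TPM, WT P0 replicate 3 placed by its stage label, leaving out libraries, and a replicate block. Titles of the cry6 and cry3 libraries gave no replicate number, so theirs followed the order in which the samples are listed. Same-numbered Kir and WT libraries deviated together at every pair at P3 alone (correlations 0.208, 0.242 and 0.272). There the numbers were taken to pair the samples, and the pairing comes from the data. Replicate pairs within groups differed by 6.74 to 111 times the sampling variance, so none was counted as a duplicate. Sequences of 50 bases shared with other genes were counted on GENCODE M21 transcripts.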

Additional observations from a re-analysis of the deposited data

Results flagged for a closer look

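Of 185 groups of 4 libraries examined, 10 held a library far from the other 3, where chance alone flags about 1 in 20. Values are TPM unless given as percent. Atp5g2 had 296.5 in Kir P7 replicate 1, against 4.54 to 7.03 in the other 3 libraries, and 180.7 in WT P7 replicate 1, against 7.36 to 8.63; both are the cry4 libraries of their groups. Cox5a was low in that same WT library, at 217.3, against 295.4 to 303.6. Each of 3 mitochondrial genes had a high library at P7, namely mt-Nd1 with 4563 in Kir replicate 2, against 2152 to 2407, mt-Atp6 with 1463 in WT replicate 2, against 628 to 714, and mt-Nd5 with 2317 in WT replicate 4, against 1419 to 1534. At P0, Cox7a2 was low in Kir replicate 2, at 245.5 against 335.6 to 352.8, and Ndufv3 high in Kir replicate 3, at 225.4 against 189.3 to 190.4. The mitochondrial share was 7.884% in Kir P0 replicate 1, against 5.74% to 6.00%. Ndufa4l2 had 105.4 in WT P0 replicate 4, against 18.3 to 32.1, and that library also had the highest cartilage sum of its group, 2031. Kir P0 went the other way, as replicate 4 had its highest Ndufa4l2, 78.2, and its lowest cartilage sum, 143.5. The part of the prefix or of cartilage in these values was not tested.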

How the results depend on the processing

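Counts of called members are given here; DESeq2 and the other settings run kept counts within 1.5 times of those in the report unless given. For WT P21 against P0, nuclear calls fell to 11 without a filter on low counts and were 14 to 18 with 1 library left out; mitochondrial calls were 2 with the replicate block and 0 to 6 with 1 library left out. For Kir P21 against P0, nuclear calls were 15 without the low-Kcnj2 Kir libraries and 18 to 25 with 1 library left out, and mitochondrial calls were 1 with upper-quartile factors, without the prefix term and with limma, 0 without the low-Kcnj2 libraries and 0 to 2 with 1 library left out. For WT P3 against P0, nuclear calls were 3 with WT P0 replicate 3 placed in P3 and 4 to 6 with 1 library left out, and mitochondrial calls were 5 with DESeq2 and with the replicate block, 0 with that placement and 0 to 5 with 1 library left out (5 without WT P0 replicate 2). For WT P14 against P3, nuclear calls were 2 without the filter and without the prefix term, 9 with that placement and 1 to 4 with 1 library left out, and 1 mitochondrial member was called with that placement. For Kir against WT, leaving out 1 library gave 0 to 1 nuclear calls at P0 and at P14. At P10 there were 2 without the prefix term, 0 with limma, 3 without the library over 25% unmapped, 0 without both libraries over 15% (chosen after seeing the data) and 3 to 8 with 1 library left out. Averaged over ages there were 0 without the filter and with the replicate block, 1 with mitochondrial genes left out of library sizes, without the prefix term, with that placement, without the library over 25% unmapped and without both libraries over 15%, and 1 to 3 with 1 library left out.

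Members near 0 in WT P21 against P0 changed sign, none of them called. Sdhd was 0.013 with limma, 0.0013 with the block and -0.22 to 0.024 with 1 library left out. Cox6b1 was 0.070 with limma and -0.22 to 0.049 with 1 library left out. Cox8a was 0.056 with upper-quartile factors, 0.10 with limma, 0.013 with WT P0 replicate 3 in P3, 0.021 with the block and -0.17 to 0.11 with 1 library left out. Atp5g2 was 0.039 with upper-quartile factors, 0.085 with the block and -0.44 to 0.19 with 1 library left out. mt-Co1 was 0.040 with upper-quartile factors, 0.017 with limma, 0.067 with the block and -0.32 to 0.15 with 1 library left out. With 1 library left out, Uqcrh ran from -0.039 to 0.27, Cox7a1 from -0.076 to 0.14 and Cox7a2 from -0.069 to 0.31. Atp5g2 in Kir against WT at P10 was -0.32 without both libraries over 15% unmapped. The cause of these changes was not tested. Outside P3 the replicate numbers were not shown to pair samples (correlations of -0.131 to 0.0682 at P21), and at P3 the block left the Kir against WT count at 0. The median log2 fold change of all genes was 0.03 with edgeR and -0.08 on TPM for Kir against WT at P3, and moved by less than 0.1 between scalings in the other comparisons. At P21, Ndufa4l2 rests on 1 to 5 counts a library, which limits its fold change.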
